A study of Mus musculus with 4 samples.

Results

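The data described here are the RNA levels of 3 genes of the PD-1 checkpoint in skin and in skin tumors of mice. They are Pdcd1, which encodes the receptor PD-1, Cd274, which encodes its ligand PD-L1, and Pdcd1lg2, which encodes its ligand PD-L2. The genes were taken by name, with earlier results of these data known, and all 3 were counted in each library. CD45+ DAPI- cells, that is living immune cells, had been sorted from 2 control skins of uninoculated C57/BL6 mice and from 2 tumors grown for 2 weeks after subcutaneous injection of 2323 cells into C57/BL6 mice of 8 to 10 weeks. The 2323 cells are 1 line from a tumor of mice whose alleles include K14rtTA, tetOCre and P53-/-, where a keratin 14 promoter drives the transactivator in keratinocytes, so the tumors are grafts of 1 line in C57/BL6 hosts and the sort was for immune cells. Each control skin and each tumor gave 1 droplet library of 3' RNA, in which unique molecular identifiers (UMIs) count RNA molecules. The libraries are named here control skins 1 and 2 and 2323 tumors 1 and 2. The labels name them as replicates, and p-values measure only the spread between these libraries.

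The libraries held 34893543 to 73904272 UMIs, and 12848 of 14795 cells passed the filters on depth and quality, with medians of 10610 to 13361.5 UMIs per cell. Cells were placed into 15 classes by UMIs of marker genes that include none of the 3 genes, and 8238 cells (64.1%) received a class. Cd8a, Foxp3, Xcr1, Cd209a and C1qa are among the genes of the gates. Their presence in a class thus follows from its gate and does not check it. Cd8a lay between 3.32 and 4.70 UMIs per 10,000 in CD8 T cells, Foxp3 between 2.93 and 5.31 in Treg, Xcr1 between 2.07 and 2.51 in type 1 dendritic cells (cDC1), Cd209a between 4.43 and 8.59 in type 2 dendritic cells (cDC2) and C1qa between 14.6 and 30.5 in macrophages. The class of migratory or mature dendritic cells (mDC), gated on Ccr7 with Fscn1 or Cacnb3, was mixed. Its summed level of 7 macrophage markers was 4.64 and 2.55 in control skins, against 26.6 and 32.0 in tumors, and that of 3 Langerhans cell (LC) markers was 22.7 and 35.1 in control skins, against 0.20 and 0.52 in tumors. LC, dendritic epidermal T cells (DETC) and dermal γδ T cells were nearly confined to control skins, with 2 to 16 cells in any tumor, so tumor and control could be tested in 11 classes that held at least 10 cells in every library and, apart from these, in mDC, which held 9, 6, 33 and 16 cells. A further 35 and 53 kept cells of control skins and 63 and 110 of tumors had markers of non-immune cells, and whether any of them were tumor cells was not examined.

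PD-1 is an inhibitory receptor of activated T cells. When it binds a ligand, its cytoplasmic tail recruits the phosphatase SHP-2, which acts on signals from the T cell receptor and CD28. Transcription of Pdcd1 follows T cell receptor signals through NFAT and is held up by the factor Tox in chronically stimulated cells. PD-L1 is carried by many hematopoietic and other cells, and its gene responds to interferon gamma, in part through IRF1. PD-L2 is found mainly on dendritic cells and macrophages, and its gene responds to IL-4 and IL-13 through STAT6 as well as to interferons. Blocking antibodies to PD-1 are in use against cutaneous squamous cell carcinoma.

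Pdcd1 lies on chromosome 1 at 94038305 to 94052553 of GRCm38, on the minus strand. Cd274 (29367455 to 29388095) and Pdcd1lg2 (29410919 to 29471161) are neighbours on the plus strand of chromosome 19, 22823 bases apart with 0 annotated genes lying between them. The antisense genes AC119228.1 and A930007I19Rik overlap Cd274 and Pdcd1lg2, and the sources used here do not say whether counting used the strand of a read. The start regions of the 3 genes are shown because the best known inputs to each gene have a sequence element that can be looked for there, and because the levels of both ligand genes are set side by side with those inputs further on. They are from RefSeq on GRCm38.p6, 5′ to 3′, from 250 bases before the start of transcription to 25 bases after it. Capitals mark matches to the NFAT core GGAAA, to the core of the interferon-stimulated response element GAAANNGAA and to the STAT6 site TTCNNNNGAA, on either strand.
Pdcd1 (chr1:94052529-94052803, minus strand): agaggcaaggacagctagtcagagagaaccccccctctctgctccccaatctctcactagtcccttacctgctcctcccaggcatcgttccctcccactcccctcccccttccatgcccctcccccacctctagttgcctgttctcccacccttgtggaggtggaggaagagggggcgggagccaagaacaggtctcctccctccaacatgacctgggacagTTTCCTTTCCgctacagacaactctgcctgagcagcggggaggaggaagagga
Cd274 (chr19:29367188-29367462, plus strand): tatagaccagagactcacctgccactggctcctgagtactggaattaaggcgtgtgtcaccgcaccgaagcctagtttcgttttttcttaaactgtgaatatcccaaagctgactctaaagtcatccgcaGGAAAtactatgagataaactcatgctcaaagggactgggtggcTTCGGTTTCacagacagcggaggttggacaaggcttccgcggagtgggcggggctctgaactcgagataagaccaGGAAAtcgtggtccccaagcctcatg
Pdcd1lg2 (chr19:29410669-29410943, plus strand): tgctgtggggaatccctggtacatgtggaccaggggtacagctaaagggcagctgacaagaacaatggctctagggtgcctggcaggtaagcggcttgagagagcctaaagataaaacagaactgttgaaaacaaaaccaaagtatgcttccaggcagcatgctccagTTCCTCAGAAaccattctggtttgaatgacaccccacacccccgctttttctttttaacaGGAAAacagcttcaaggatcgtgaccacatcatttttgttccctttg
The NFAT core was found at 2 places in the Pdcd1 region, next to each other at -28 and -23 from the start. The Cd274 region held 1 match to the interferon-stimulated response element, at -76, and 2 to the NFAT core. The Pdcd1lg2 region held 1 match to the STAT6 site, at -82, and 1 to the NFAT core. Among 32851 such regions of 300 bases, 61.3% held the NFAT core, 8.56% the interferon element and 6.95% the STAT6 site. The gamma-activated site TTCNNNGAA (8.30% of regions) and the AP-1 site TGANTCA (7.81%) had 0 matches in all 3. GC content was 60.7% for Pdcd1, 52.7% for Cd274 and 46.0% for Pdcd1lg2, against a median of 52.7% over all regions. Matches of letters are a description of these windows only.

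To describe where the receptor was expressed, the UMIs of Pdcd1 were divided by all UMIs of a class in a library and given per 10,000 UMIs. In control skins the level was highest in dermal γδ T cells (1.49 and 0.80), CD8 T cells, CD4 T cells and ILC2, and each of these overlapped with the next in that order. DETC, also a T cell class, were low at 0.040 and 0.024, and myeloid classes were near 0. In control skins, macrophages gave 3 and 0 UMIs of Pdcd1, and cDC1, mDC, neutrophils and mast cells gave none, where a count of 0 allows 3 counts, or levels of up to 0.038 to 0.49 per 10,000 depending on the UMIs of the class (counting error only). In tumors the order was CD8 T, CD4 T, ILC2 and Treg, the last of these overlapping with ILC2, and all other classes with at least 10 cells in every library lay below 0.11 in both tumors. NK cells carried far fewer Pdcd1 molecules than CD8 T cells when both classes were compared within the same libraries. The difference was -4.39 ± 0.56 on the log2 scale (SE, edgeR's quasi-likelihood test, adjusted p = 7.04e-07), in a comparison that called 7.34% of all genes. Levels of CD8 T against CD4 T cells (0.47 ± 0.40, adjusted p = 0.803; 2.23% of genes called) and of Treg against CD4 T cells (-1.16 ± 0.44, adjusted p = 0.168; 3.14% called) did not pass the threshold of 0.05.

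**Figure D1:**
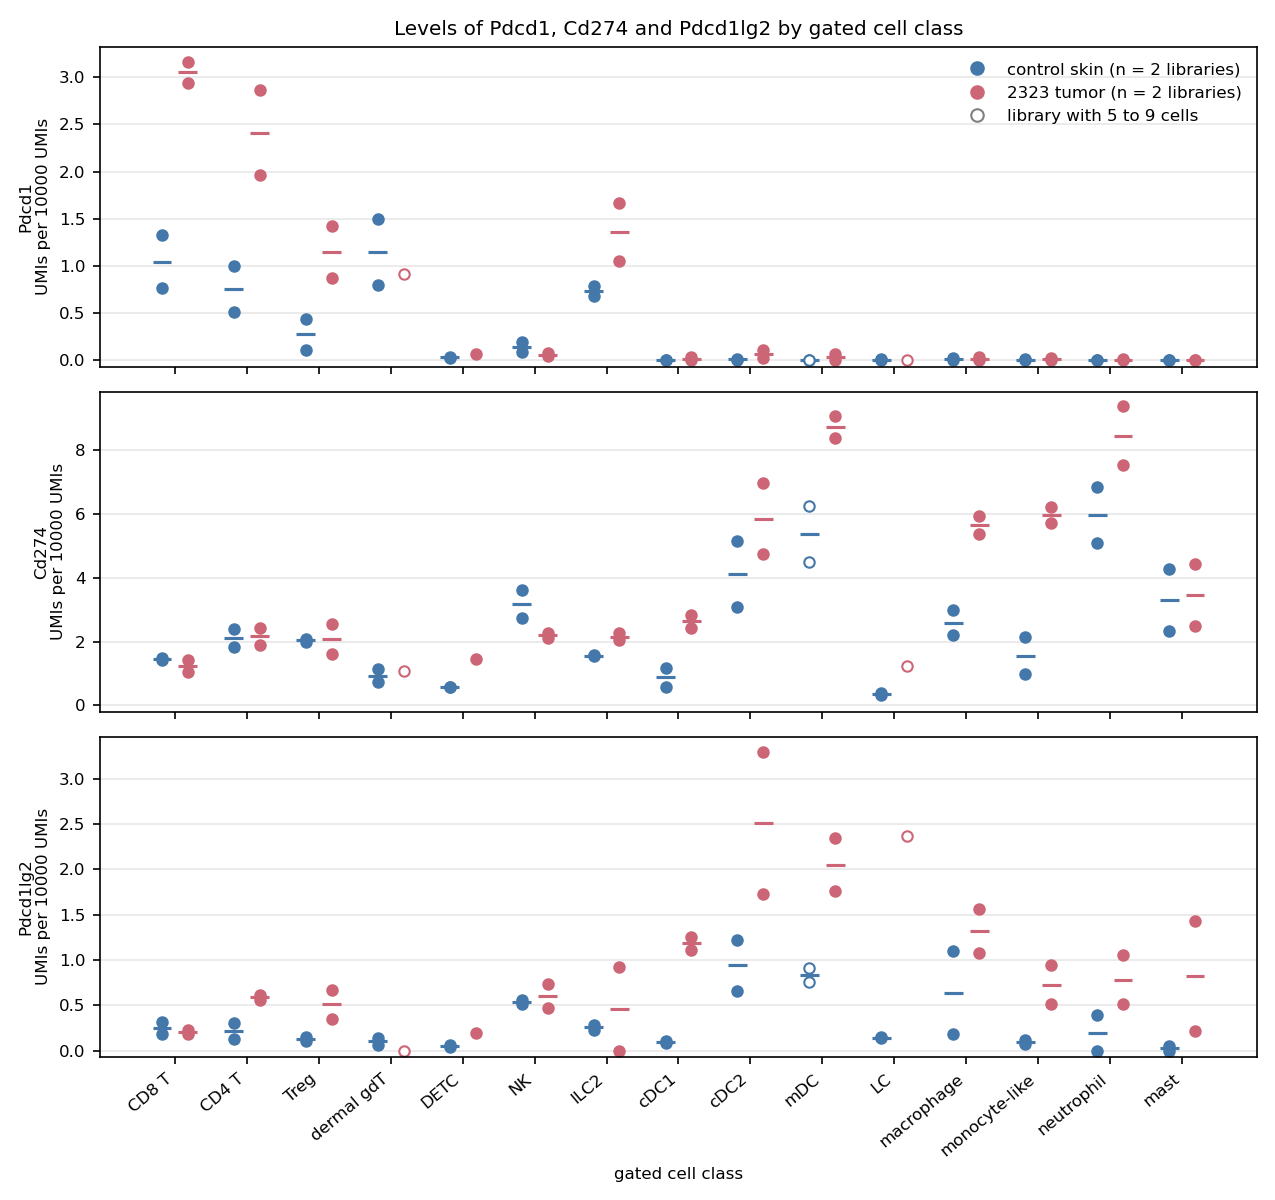
Level of each gene in UMIs per 10,000 (linear axis) by gated class, with 1 point per library and a bar at the group mean, open points for libraries with 5 to 9 cells of the class and none drawn under 5. In control skins Pdcd1 stands highest in dermal γδ T, CD8 T and CD4 T cells and ILC2, while DETC lie at 0.040 and 0.024. In both groups the highest means are those of neutrophils and mDC for Cd274 and of cDC2 and mDC for Pdcd1lg2. LC are lowest for Cd274 in control skins, at 0.38 and 0.34. For Pdcd1 in CD8 T cells the 2323 tumors lie at 3.16 and 2.94 and the control skins at 0.77 and 1.33.

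Pdcd1 was higher in tumors than in control skins in CD8 T, CD4 T and Treg cells, 3 of the 5 classes in which it could be tested. In CD8 T cells, the cytotoxic arm, the level was 0.77 and 1.33 in control skins, against 3.16 and 2.94 in tumors (means 1.05 ± 0.40 and 3.05 ± 0.16, SD, n = 2 libraries each). Both tumors lay above both control skins, and the log2 fold change was 1.43 ± 0.27 (SE, edgeR, adjusted p = 0.0182), where 7.99% of the 8075 genes tested were called. The share of CD8 T cells with a Pdcd1 UMI was 27.5% and 44.9% in control skins, against 69.5% and 70.0% in tumors. With each cell thinned to 1000 UMIs the shares were 5.63% and 8.16% in control skins, against 21.1% and 20% in tumors. In tumor macrophages, whose cells were deeper, they were 0.052% and 0.16%. The part of free RNA in these shares was not tested. Median depths were 9890.5 and 10636 UMIs per CD8 T cell in control skins and 12693.5 and 10003 in tumors, and 19845 and 19677.5 per tumor macrophage.

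CD4 T cells without Foxp3 carried Pdcd1 at 0.51 and 1.00 in control skins and 1.96 and 2.86 in tumors. The groups did not overlap, and the log2 fold change was 1.68 ± 0.32 (edgeR, adjusted p = 0.0113; 9.81% of 7704 genes called). Positive cells made up 9.46% and 31.7% in control skins and 46.9% and 69.9% in tumors, or 5.41% and 7.32% against 11.9% and 19.4% after thinning. Treg, the Foxp3+ cells that restrain other T cells, had the lowest level of these classes. Their 34 and 32 cells from control skins gave 13 and 3 Pdcd1 UMIs, which is 0.44 and 0.12 per 10,000, and the tumors gave 0.88 and 1.42. The log2 fold change was 1.96 ± 0.47 (edgeR, adjusted p = 0.0326; 4.46% of 6058 genes called), and 11.8% and 6.25% of cells in control skins and 38.9% and 53.3% in tumors were positive. After thinning no Treg cell of the control skins was positive, which allows shares of up to 10.3% and 10.9% (upper limits of the exact 95% interval, counting error only), against 6.19% and 16.7% in tumors.

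The calls depended on single control libraries. Without control skin 1 the log2 fold changes were 1.07 in CD8 T (adjusted p = 0.217) and 1.24 in CD4 T cells (adjusted p = 0.170), and without control skin 2 that of Treg was 1.35 (adjusted p = 0.194), while it was 3.22 (adjusted p = 2.3e-05) without control skin 1. In each of these fits the remaining control library is assumed to vary like the tumors. DESeq2 gave an adjusted p of 0.0751 for Treg, where it called 137 of 6058 genes. It called Pdcd1 in CD8 T and CD4 T cells, where it called 494 of 8075 and 442 of 7704 genes. Macrophage RNA in the T cells overlapped between the groups in CD8 T cells and Treg and was higher in both tumors in CD4 T cells. The summed level of 7 macrophage markers in CD8 T cells was 0.30 and 0.90 in control skins (6 of 7 found in each, Fcgr1 at 0) and 0.74 and 2.47 in tumors (7 of 7). It was 0.65 and 0.75 against 0.99 and 1.40 in CD4 T cells and 0.20 and 1.35 against 0.56 and 1.90 in Treg, while macrophages themselves carried at most 0.037 Pdcd1 UMIs per 10,000.

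ILC2 were the lineage outside T cells with a clear Pdcd1 signal. The level was 0.78 and 0.68 in control skins from 167 and 106 UMIs. In tumors, where only 17 and 14 ILC2 were gated at medians of 2815 and 2869 UMIs against 9342 and 9527 in control skins, it was 1.05 and 1.67 from 6 and 9 UMIs. The log2 fold change of 0.58 ± 0.41 did not pass (edgeR, adjusted p = 0.471; 3.74% of 7192 genes called), and the median of all genes in this class was -0.29. In NK cells Pdcd1 gave 9 and 3 UMIs in control skins and 9 and 3 in tumors, and these 0.20, 0.09, 0.07 and 0.05 per 10,000 came from 1 to 6 cells a library. The tumor change of Pdcd1 in NK against that in CD8 T cells was -2.68 ± 1.16 (unadjusted p = 0.0291, adjusted p = 0.489, edgeR; 0.304% of genes called). The tumor changes of CD8 T and CD4 T cells differed by -0.10 ± 0.69 (adjusted p = 1; 0.152% called) and those of Treg and CD4 T cells by 0.29 ± 0.88 (adjusted p = 0.988; 0.304% called), so no difference between T cell classes in the size of the rise was detected, with wide errors.

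**Figure D2:**
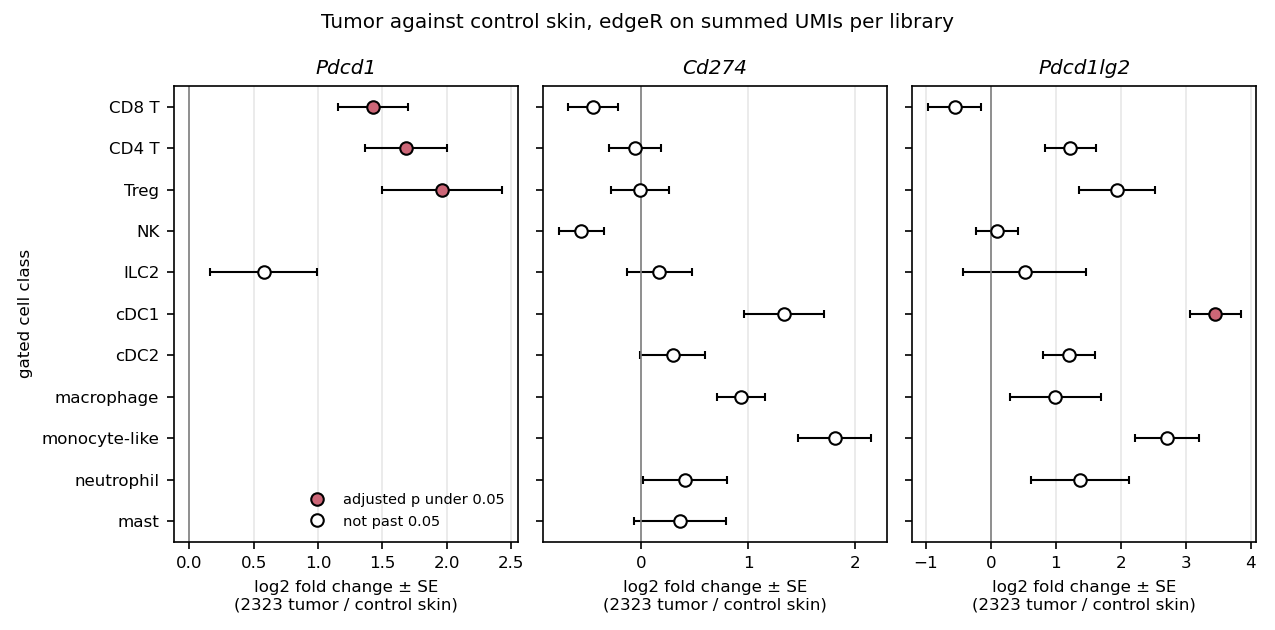
Log2 fold change of each gene, 2323 tumor against control skin, by class, from edgeR's quasi-likelihood test with bars of 1 SE. Classes without a test, mDC, which were tested apart, and Pdcd1 in macrophages at the limit of a count of 0 are not drawn. Filled points passed an adjusted p of 0.05, which were Pdcd1 in CD8 T (1.43), CD4 T (1.68) and Treg (1.96) and Pdcd1lg2 in cDC1 (3.45).

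In CD8 T and CD4 T cells the Pdcd1 molecules were spread over more cells in tumors, and in ILC2 the groups overlapped. The 10% of CD8 T cells with most Pdcd1 UMIs held 70.2% and 62.2% of them in control skins and 39.4% and 33.6% in tumors, and cells with 5 or more UMIs were 4.23% and 12.2% against 38.0% and 37.5%. In CD4 T cells the corresponding share was 100% and 71.8% in control skins, against 53.6% and 39.6% in tumors, and in ILC2 84.4% and 66.0% against 66.7% and 77.8%. This share moves with the level, since few molecules can lie in few cells only. Cells in division were also compared. Among CD8 T cells of control skins, those with at least 2 UMIs of the cycling genes Mki67 and Top2a carried 1.05 and 2.00 Pdcd1 UMIs per 10,000 and those with none 0.73 and 0.56. In tumor 1 the corresponding levels were 3.37 and 1.94 and in tumor 2, with 10 cycling cells, 2.89 and 3.24. Cells without these UMIs thus lay higher in both tumors than in both control skins. In fits of cells without these UMIs, the calls in CD8 T cells and Treg were kept, and the log2 fold change in CD4 T cells was 1.33 (adjusted p = 0.167).

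Cd274 was found in every class. In control skins neutrophils (6.85 and 5.08) and mDC (4.48 and 6.24) led, followed by cDC2, mast cells and NK cells, and the lowest levels were those of DETC (0.56 and 0.58) and LC (0.38 and 0.34). In tumors mDC (8.36 and 9.05) and neutrophils (9.36 and 7.52) led again, followed by monocyte-like cells, cDC2 and macrophages, which overlapped, and CD8 T cells were lowest (1.05 and 1.41). In both orders most neighbours overlapped. Exceptions in control skins were Treg above ILC2, CD8 T above dermal γδ T cells and DETC above LC, and in tumors neutrophils above monocyte-like cells, macrophages above mast cells, cDC1 above NK cells and Treg above CD8 T cells. Within libraries, Cd274 in mDC was above that in cDC1 by 2.17 ± 0.35 on the log2 scale (edgeR, adjusted p = 1.23e-05; 25.8% of genes called), while mDC against cDC2 (0.39 ± 0.33, adjusted p = 0.485; 15.2% called), mDC against macrophages (0.72 ± 0.33, adjusted p = 0.123; 22.5% called) and cDC2 against macrophages (0.32 ± 0.33, adjusted p = 0.669; 10.7% called) did not pass. The comparisons with mDC, which held 9, 6, 33 and 16 cells, were added after the cell numbers were seen.

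In macrophages and monocyte-like cells, Cd274 was higher in both tumors than in both control skins, but edgeR called it in 0 of these 11 classes and not in mDC. Its unadjusted p was under 0.05 in 4 of the 11, which were these classes, cDC1, also higher, and NK cells, where it was lower. The share of all genes under that p is not given here, so the count is a description. DESeq2 called 2, macrophages and monocyte-like cells. In these DESeq2 called 415 of 11906 and 96 of 7433 genes. In macrophages, which take up antigen and debris, the level was 2.99 and 2.19 in control skins, against 5.36 and 5.94 in tumors, and 65.5% and 64.0% of cells against 84.9% and 91.8% were positive (21.8% and 15.6% against 33.8% and 41.5% after thinning). The log2 fold change was 0.94 ± 0.22 (unadjusted p = 0.00416, adjusted p = 0.131 by edgeR and 0.0151 by DESeq2), in a class where edgeR called 0.454% of 11906 genes. It was called without tumor 1 (1.06, adjusted p = 0.00193) and without tumor 2 (0.80, adjusted p = 0.0116), fits in which 553 and 1225 genes of the class were called, against 54. It was not called without control skin 1 (1.16, adjusted p = 0.229) or control skin 2 (0.77, adjusted p = 0.418). In monocyte-like cells, gated on Ly6c2 and Plac8 with at most 4 UMIs of C1q genes, the level rose from 0.98 and 2.13 to 5.71 and 6.21 by DESeq2 (log2 fold change 1.80, adjusted p = 0.000268). The edgeR estimate was 1.81 ± 0.34 (adjusted p = 0.0625), and 0.592% of 7433 genes were called. Control skin 1 held only 19 monocyte-like cells with 26 Cd274 UMIs. Without tumor 1 the change was 1.87 (adjusted p = 1.18e-07) and without tumor 2 it was 1.71 (adjusted p = 1.43e-06), and it was not called without control skin 1 (1.36, adjusted p = 0.0645) or control skin 2 (2.63, adjusted p = 0.0655). The tumor changes of macrophages and monocyte-like cells differed by -0.78 ± 0.46 (edgeR, adjusted p = 0.974; 0.101% called).

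In cDC1, the cross-presenting dendritic cells, Cd274 was 1.18 and 0.57 in control skins, against 2.43 and 2.84 in tumors, with a log2 fold change of 1.34 ± 0.38 (edgeR, adjusted p = 0.0654; 5.72% of 6684 genes called). 1 cell of control skin 1 held 37 of the 61 Cd274 UMIs of that class, and without the cell with most UMIs in each library the change was 1.90 (adjusted p = 0.0146). It was 2.00 (adjusted p = 0.0282) without control skin 1 and 1.40 (adjusted p = 0.0276) without tumor 1, but 0.81 (adjusted p = 0.305) without control skin 2 and 1.22 (adjusted p = 0.0610) without tumor 2. In cDC2 the levels overlapped, at 5.15 and 3.08 in control skins and 4.75 and 6.95 in tumors (0.30 ± 0.30, adjusted p = 0.561), in the class with the largest share of genes called, 12.8% of 8420. In mDC the change was 0.57 ± 0.36 (adjusted p = 0.410; 7.82% of 4363 genes called). Neutrophils, at 6.85 and 5.08 against 9.36 and 7.52, gave 0.41 ± 0.40 (adjusted p = 0.806; 0.0604% of 4969 genes called) and mast cells, which overlapped, 0.36 (adjusted p = 0.746; 0.107% of 2791 genes called).

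No class of lymphocytes passed the test for Cd274. CD8 T cells were at 1.47 and 1.42 in control skins and 1.05 and 1.41 in tumors, a log2 fold change of -0.45 ± 0.24 (edgeR, adjusted p = 0.285) whose sign turned when cycling cells were left out (0.09). CD4 T cells (2.38, 1.82, 1.90 and 2.43, in the same order) and Treg (1.98, 2.09, 1.60 and 2.54) overlapped. NK cells were at 2.74 and 3.63 in control skins and 2.28 and 2.11 in tumors, lower in both tumors, with a log2 fold change of -0.56 ± 0.21 (unadjusted p = 0.0259, adjusted p = 0.202; 3.65% of 6132 genes called) and a median depth per cell of 11340 and 13777 UMIs against 8146 and 7855. ILC2 gave 1.53 and 1.58 against 2.27 and 2.04 from 13 and 11 tumor UMIs. The tumor change in CD8 T cells differed from that in macrophages by -1.41 ± 0.47 on the log2 scale (unadjusted p = 0.00492, adjusted p = 0.125; 2.34% of genes called) and that in NK cells by -1.56 ± 0.46 (unadjusted p = 0.00204, adjusted p = 0.198; 0.416% called), the latter a comparison added after the values were seen. The tumor change in cDC2 was -0.75 ± 0.45 from that in macrophages (adjusted p = 0.629; 0.619% called). None of the 7 differences of tumor changes computed before that addition was called by edgeR or DESeq2. At an unadjusted p under 0.05 there were 2 and 1, and the share of all genes under that p is not given here.

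A level in T cells can hold RNA of other cells. Tumor CD8 T cells gave 12% and 10% Cd274-positive cells after thinning and tumor macrophages 33.8% and 41.5%, and in control skins the shares were 2.61% and 3.16% in LC and 4.49% and 4.37% in DETC. In tumor CD8 T cells the 7 macrophage markers summed to 0.74 and 2.47 per 10,000, against 94.7 and 67.3 in macrophages. The part of free RNA in the Cd274 of lymphocytes was not tested.

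Pdcd1lg2 had its highest mean levels in cDC2, mDC and macrophages in control skins and in tumors alike, and in control skins the neighbours in that order overlapped. In tumors these were 1.73 and 3.30 in cDC2, 1.76 and 2.34 in mDC and 1.08 and 1.56 in macrophages, followed by cDC1, and mDC lay above macrophages in both tumors. T cells, NK cells and ILC2 lay at or below 0.93 in every library. In control skins the places of mDC and macrophages rested on single cells, with 14 of 22 and 10 of 14 UMIs of mDC in 1 cell each. Without the cell with most UMIs in each library, mDC were at 0.37 and 0.25 there and macrophages at 0.35 and 0.15. NK cells were then at 0.48 and 0.40 and cDC2 at 0.98 and 0.58. Within libraries cDC2 against macrophages (0.85 ± 0.43, edgeR, adjusted p = 0.257), mDC against cDC2 (-0.30 ± 0.46, adjusted p = 0.722) and mDC against macrophages (0.53 ± 0.46, adjusted p = 0.454) did not pass, and mDC stood above cDC1 by 1.41 ± 0.48 (adjusted p = 0.0277).

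Pdcd1lg2 was called in cDC1 and in no other of the 10 classes tested that held at least 10 cells in every library. In those 10, 5 had an unadjusted p under 0.05, a description only, since the share of all genes under that p is not given here. DESeq2 called cDC1, cDC2 and monocyte-like cells. In these DESeq2 called 267 of 6684, 785 of 8420 and 96 of 7433 genes. In mDC, tested apart, the unadjusted p was 0.0130 without a call. In cDC1 the 22 and 30 cells of control skins gave 4 and 8 UMIs, which is 0.08 and 0.10 per 10,000, and the 77 and 13 cells of tumors gave 291 and 45 UMIs, which is 1.26 and 1.11. The log2 fold change was 3.45 ± 0.39 (edgeR, adjusted p = 0.00201), where 5.72% of 6684 genes were called. The share of positive cells was 13.6% and 10% in control skins, against 41.6% and 46.2% in tumors, and 0 and 0 against 7.79% and 7.69% after thinning. Single cells carried a large share of these molecules. In tumor 2 a single cell held 36 of the 45 UMIs and in tumor 1 a single cell held 79 of the 291, and without the cell with most UMIs in each library the levels were 0.04, 0.05, 0.94 and 0.23 and the change was 3.50 ± 0.76 (adjusted p = 0.0394). Macrophage markers in cDC1 were at 1.96 and 2.20 in control skins and 2.15 and 1.95 in tumors, 5 mDC markers at 1.61 and 0.23 against 0.96 and 1.60, and LC markers at 18.6 and 9.99 against 2.93 and 3.18. Their part in the result was not tested.

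In the other phagocytes the tumor levels of Pdcd1lg2 were mostly higher without passing edgeR's threshold. cDC2 were at 1.22 and 0.65 in control skins and 1.73 and 3.30 in tumors (1.21 ± 0.40, adjusted p = 0.0876 by edgeR and 0.0320 by DESeq2). The change was 1.65 (adjusted p = 0.000114) without tumor 1, but it was not called without control skin 1 (1.71, adjusted p = 0.104), control skin 2 (0.80, adjusted p = 0.391) or tumor 2 (0.62, adjusted p = 0.112). Positive cDC2 were 45.0% and 32.3% against 56.9% and 69.8%, or 6.67% and 4.17% against 12.2% and 24.5% after thinning. Beside this, macrophage markers in the cDC2 class were at 10.3 and 10.7 in control skins and 4.84 and 4.94 in tumors, and mDC markers at 2.30 and 1.86 against 4.83 and 5.47, and their part in the result was not tested. Monocyte-like cells were at 0.08 and 0.11 from 2 and 12 UMIs in control skins and at 0.51 and 0.94 in tumors (2.71 ± 0.49, adjusted p = 0.0537 by edgeR and 0.00828 by DESeq2), and it was called without control skin 1 (2.51, adjusted p = 0.0125), tumor 1 (3.12, adjusted p = 1.18e-07) or tumor 2 (2.20, adjusted p = 0.00118), but not without control skin 2 (3.26, adjusted p = 0.190). mDC were at 0.91 and 0.76 against 1.76 and 2.34 (1.17 ± 0.40, adjusted p = 0.105).

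Macrophages gave a wide spread in control skins. Their Pdcd1lg2 was 1.10 and 0.18 per 10,000 there and 1.08 and 1.56 in tumors, and the groups overlapped (0.99 ± 0.70, edgeR, adjusted p = 0.606). A single cell of control skin 1 held 77 of the 111 UMIs. Without the cell with most UMIs in each library, the levels were 0.35 and 0.15 in control skins and 1.05 and 1.53 in tumors, and the change was 2.33 ± 0.41 (adjusted p = 0.0581). Leaving out whole libraries gave 2.68 (adjusted p = 0.0742) without control skin 1, 0.12 (adjusted p = 0.917) without control skin 2, 1.32 (adjusted p = 0.00943) without tumor 1 and 0.67 (adjusted p = 0.0850) without tumor 2. By positive cells the groups stood apart, at 20% and 12.4% in control skins and 42.1% and 52.6% in tumors, and at 3.64% and 0.54% against 7.19% and 10.6% after thinning. The tumor changes of cDC2 and macrophages differed by -0.05 ± 0.57 (adjusted p = 1). In lymphocytes, Pdcd1lg2 was 0.31 and 0.13 against 0.62 and 0.56 in CD4 T cells (1.22 ± 0.39, adjusted p = 0.0834) and 0.10 and 0.15 against 0.35 and 0.67 in Treg (1.94 ± 0.58, adjusted p = 0.0809), with 3 and 4 UMIs in the Treg of control skins. The CD4 T value was called without tumor 2 (1.29, adjusted p = 0.0438) and the Treg value without tumor 1 (2.38, adjusted p = 0.0209), and neither was called with any other library left out, with 0.75 (adjusted p = 0.257) in CD4 T cells without control skin 2. CD8 T cells, NK cells, ILC2 and neutrophils did not pass (adjusted p = 0.445, 0.931, 0.807 and 0.665), and mast cells, with 0 and 1 UMI in control skins, were not tested.

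Both ligands were then looked at in the same cell, with cells thinned to 5000 UMIs and cells with fewer UMIs left out. Among those left out were 93 and 92 tumor neutrophils, where 26 and 27 remained. In tumor 1, 43 CD4 T cells and 38 NK cells were left out, and 100 and 93 remained. In tumor macrophages, 68.3% and 79.1% of cells carried Cd274 and 22.5% and 34.7% carried Pdcd1lg2. Pdcd1lg2 was found in 26.7% and 37.8% of the Cd274-positive macrophages and in 13.4% and 22.8% of the Cd274-negative ones. Tumor cDC2 showed the same order, with 47.3% and 74.4% of positive and 20.6% and 7.14% of negative cells, the last from 14 cells, and so did tumor monocyte-like cells, with 21.2% and 26.9% against 5.34% and 11.5%. In tumor cDC1 the shares were 44.1% and 20% against 14.0% and 12.5%, where tumor 2 held only 5 positive and 8 negative cells. Tumor NK cells gave 21.6% and 31.8% against 11.9% and 22.2%. Tumor CD4 T cells gave near-equal shares, 26% and 15.8% against 24% and 15.8%. Tumor CD8 T cells had the opposite order, with 3.92% and 7.14% of 102 and 14 positive cells against 11.8% and 16.0% of 152 and 25 negative cells. So did tumor neutrophils, with 10% and 19.0% against 33.3% in both, and mDC of tumor 1, with 44.4% against 83.3%, where each share of negative cells came from 6 cells, and mDC of tumor 2 held no negative cell. The cells of a library share their source, so these shares are given without a test.

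**Figure D3:**
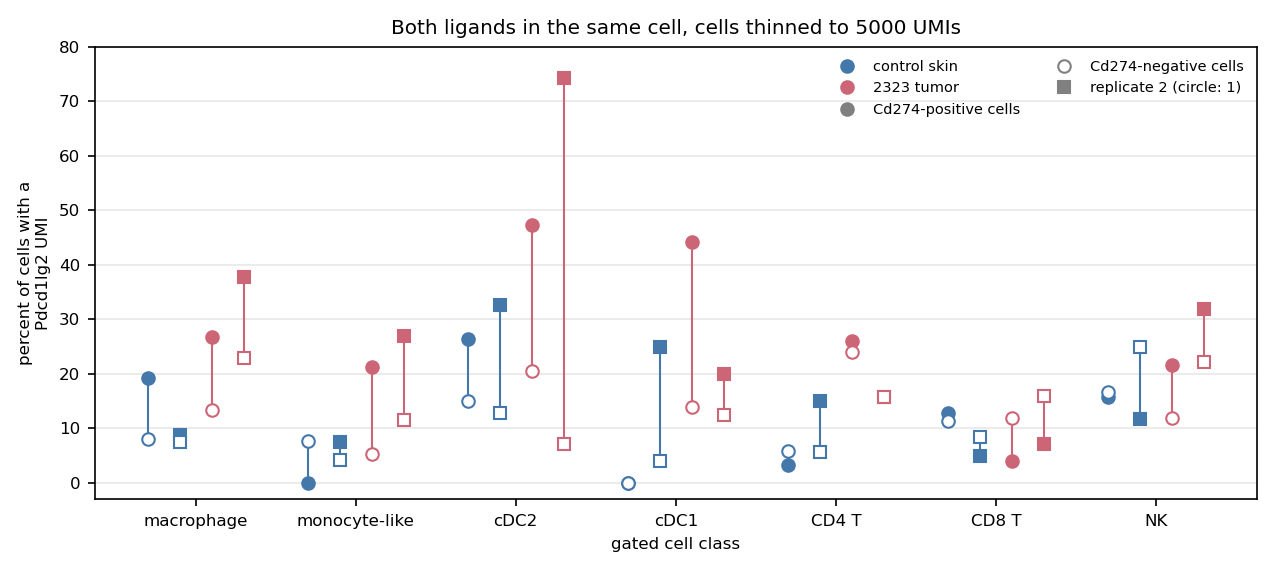
Percent of cells with a Pdcd1lg2 UMI among Cd274-positive (filled) and Cd274-negative (open) cells of a class. Cells were thinned to 5000 UMIs, and cells with fewer were left out. Circles are replicate 1, squares replicate 2, and a line joins the values of a library. In macrophages of the 2323 tumors the positive cells lie at 26.7% and 37.8% and the negative cells at 13.4% and 22.8%.

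The cells that supplied the molecules of each gene changed with the make-up of the libraries. Tumor macrophages were 39.8% and 31.3% of all kept cells, against 1.85% and 6.02% in control skins. Their cells were deep, so their part of the UMIs of all genes was larger than their part of the cells. In tumors macrophages held 39925148 of 71648233 and 13137791 of 33616106 UMIs of kept cells. In control skins they held 1008764 of 40708039 and 3195406 of 44295322. Macrophages held 64.6% and 50.9% of all Cd274 UMIs of the tumors, against 5.46% and 12% in control skins, and 64.2% and 52.9% of all Pdcd1lg2 UMIs, against 10.7% and 6.79%. In control skins the largest shares of both ligands lay outside the classes, in cells with markers of 2 lineages (24.7% and 25.7% of Cd274 and 20% and 32.7% of Pdcd1lg2). For Pdcd1, CD8 T cells held 14.2% and 14.3% of UMIs in control skins and 54.9% and 13.5% in tumors, so the tumors differed from each other, and CD4 T cells held 10.2% and 25% in tumors. ILC2 held 19.6% and 20.5% of Pdcd1 UMIs in control skins and 0.26% and 0.83% in tumors. The most Pdcd1 UMIs of control skins lay outside the classes, in T cells that met no T cell gate. These cells gave 210 and 110 UMIs there, against 167 and 106 from ILC2. In tumors they gave 360 and 92, against 239 and 270 from CD4 T cells. In tumor 2, cells with markers of 2 lineages held 33.8% of the Pdcd1 UMIs, against 8.65% in tumor 1.

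**Figure D4:**
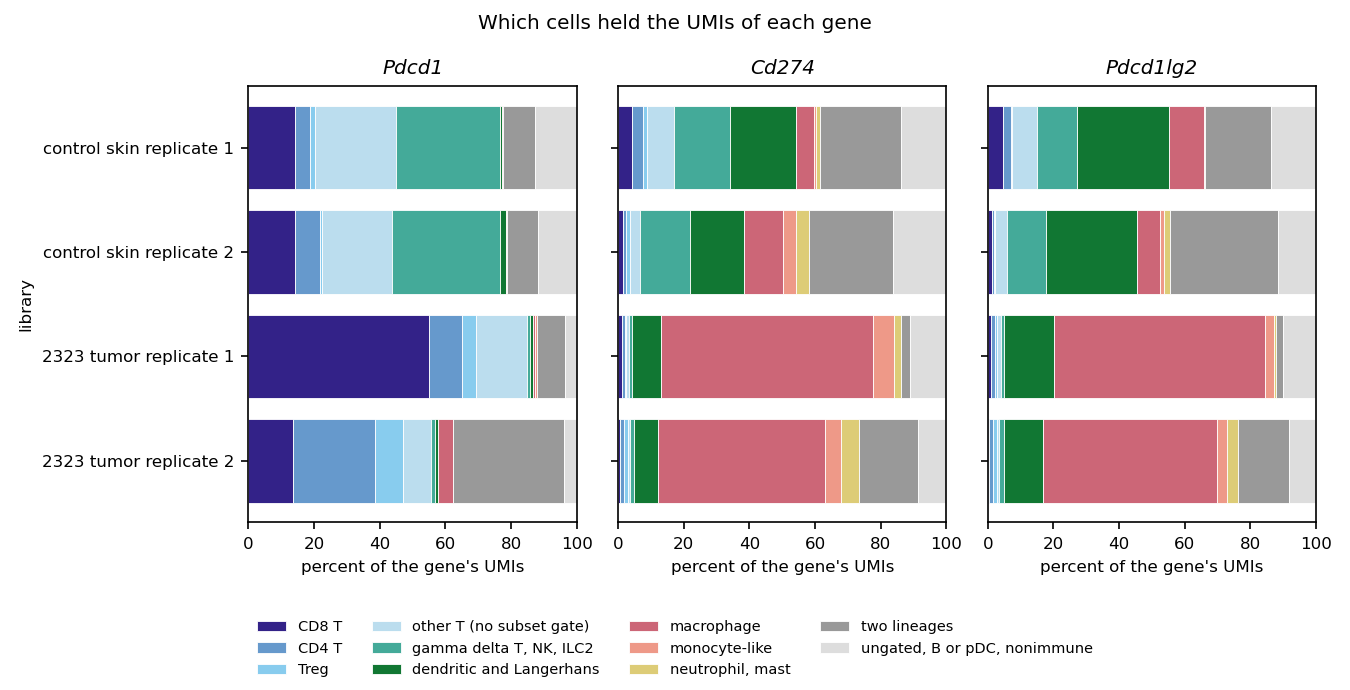
Stacked bars of the percent of all UMIs of each gene found in each class or group of classes, 1 bar per library. Macrophages hold 64.6% and 50.9% of Cd274 UMIs and 64.2% and 52.9% of Pdcd1lg2 UMIs in the 2323 tumors, and CD8 T cells 54.9% and 13.5% of Pdcd1 UMIs.

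The genes around the receptor were read from lists named for their role. Of 12 regulators of Pdcd1 transcription, all tested in CD8 T cells, 2 rose and 2 fell (median log2 fold change -0.15, against 0.03 over all genes, of which 7.99% were called). Eomes, a T-box factor of cytotoxic cells, rose by 2.77 and Tox by 1.69, and Nr4a1, induced by T cell receptor signals, fell by 1.78 and Nfatc2 by 1.66. Tox was at 2.32 and 1.90 per 10,000 in control skins and 8.11 and 7.36 in tumors. In CD4 T cells 3 of 12 rose, Eomes (4.29), Prdm1 (2.08) and Tox (1.75), and Nfatc2 fell by 1.37, where 9.81% of all genes were called. None of the 10 members tested in Treg was called (4.46% of all genes), nor any of the 10 in NK cells (3.65%), where Tox lay between 1.38 and 3.61 per 10,000. In cDC1 2 of 7 members tested fell, Nr4a3 (-1.86) and Nr4a2 (-1.42), beside 5.72% of all genes called. In cDC2 Tbx21 rose by 2.05 and Prdm1 (-2.10) and Batf (-1.33) fell, 3 of 10 members beside 12.8% of all genes, and in mDC 1 of 7 fell, Nr4a3 (-1.44), beside 7.82%. Of the 7 genes of the proximal signals of the receptor, 1 fell in CD8 T cells (median -0.65, against 0.03 over all genes, 7.99% called), and 1 rose and 2 fell in CD4 T cells (median -0.49, against 0.04 over all genes, 9.81% called). In ILC2 1 of the 7 rose (median 0.40, against -0.29 over all genes, 3.74% called). In cDC2 2 of the 5 tested fell (median -0.33, against 0.05 over all genes, 12.8% called). Cd28, the costimulatory receptor that PD-1 counteracts, fell by 2.03 in CD8 T cells (10.5 and 8.55 against 2.44 and 2.86 per 10,000) and by 1.64 in CD4 T cells, where Csk also fell by 1.08 and Cd247 rose by 1.14. Ptpn11, which encodes SHP-2, was not called in CD8 T cells, at 0.39 and 0.54 in control skins and 0.60 and 0.40 in tumors.

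Of the genes from interferon gamma to PD-L1, Irf1, a transcription factor of the interferon response, rose in CD8 T cells (1.22), ILC2 (2.30) and cDC2 (1.37). In macrophages Irf1 was at 0.73 and 0.69 against 1.64 and 1.72 and was not called. Ifng, the cytokine itself, rose in CD4 T cells by 1.71, from 0.85 and 0.46 to 2.10 and 2.69 per 10,000, and was at 2.03 and 0.86 against 2.25 and 1.23 in CD8 T cells and at 2.07 and 1.01 against 2.79 and 3.50 in NK cells, without a call. Ifngr2 fell by 2.25 in CD4 T cells. Not all members of this list are given here, so no count over it is made for any class.

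In the list of IL-4 and IL-13 to PD-L2, the members called were all lower in tumors, in 4 classes, while the median of the list lay above that of all genes in 8 of the 12 classes tested. In CD4 T cells Il4 fell by 4.34 (0.82 and 0.44 against 0.02 and 0.04 per 10,000), Il13 by 2.86 and Il4ra by 0.88, so that 3 of the 5 members tested were called (median -0.88, against 0.04 over all genes, 9.81% called). In ILC2, Il13, which is among the genes that gate this class, fell by 3.55, where 3.74% of 7192 genes were called. It gave 378 and 262 of the 2131903 and 1552092 UMIs of the class in control skins. In tumors it gave 1 and 1 of 57143 and 54005, near the limit of a count of 0. Il13ra1 fell in cDC1 by 2.77 and in cDC2 by 1.27, while the medians of the 4 members tested were 0.17 in cDC1 (-0.000325 over all genes, 5.72% called) and 0.19 in cDC2 (0.05 over all genes, 12.8% called). In macrophages 0 of the 4 members tested were called (median 0.37, against 0.03 over all genes, 0.454% called), and Stat6 was called in none of the classes in which it was tested. Of the 4 ligand partners and stabilisers, 1 rose in CD8 T cells (7.99% of all genes called), 1 of the 3 tested rose in CD4 T cells (9.81%) and 1 fell in Treg (4.46%), with none called in the other classes. Cd80, which binds PD-L1 in cis, rose in CD8 T cells by 2.33 (0.06 and 0.18 against 0.52 and 0.68 per 10,000) and in CD4 T cells by 2.37, and Rgmb, a further binding partner of PD-L2, fell in Treg by 2.60. Cmtm6, which keeps PD-L1 at the cell surface, was at 0.41 and 0.69 against 0.76 and 0.75 in macrophages and was not called. In cDC2, Cd28 and Cd247 fell, by 3.21 and 4.05, in a class in which 6 T cell markers summed to 0.22 and 0.27 in control skins (6 of 6 found) and 0.05 and 0.06 in tumors (Cd3d, Cd3e and Trac at 0 in tumor 2), and the part of that RNA was not tested.

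**Figure D5:**
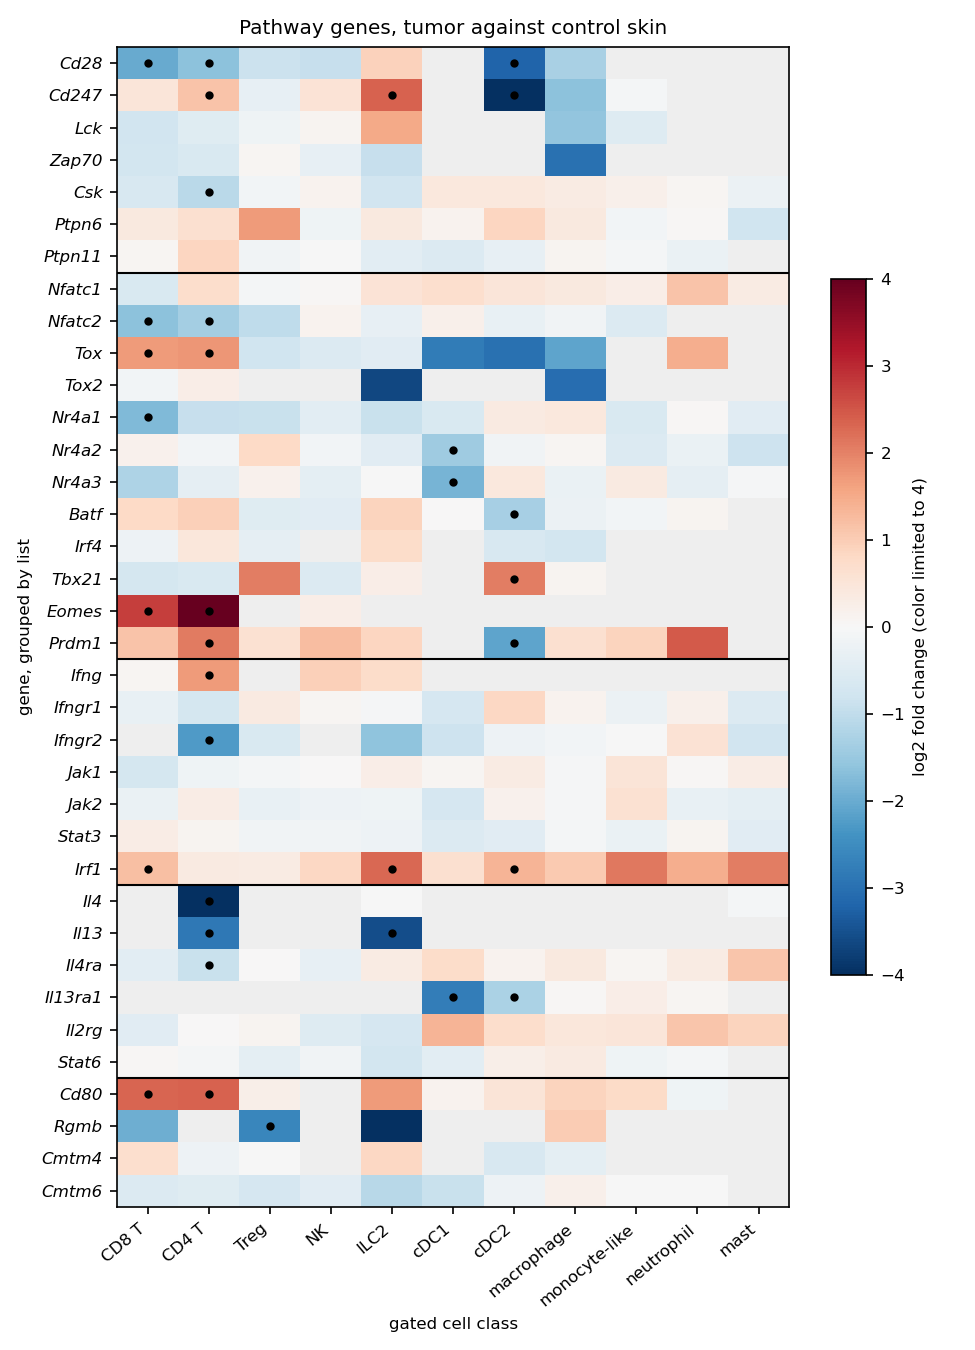
Log2 fold change, 2323 tumor against control skin, of genes of the 5 lists (rows, lists parted by lines) by tested class other than mDC (columns). Color is limited to 4 in size, with grey for genes not tested and a dot where edgeR's adjusted p was under 0.05. Irf1 is higher and dotted in CD8 T cells (1.22), ILC2 (2.30) and cDC2 (1.37), and Cd28 is lower and dotted in CD8 T cells (-2.03), CD4 T cells (-1.64) and cDC2 (-3.21).

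The genes whose pattern was most like that of each member were named by Pearson's r of log2(UMIs per 10,000 + 0.1) over 26 means of class and group with at least 20 cells in all, among 11817 genes. For Pdcd1 they were Carmil2 (0.92), Crmp1 (0.92), Xlr4b (0.91), Xlr4a (0.91) and 1500009L16Rik (0.90), where Xlr4a and Xlr4b are near-identical copies whose reads can be split. For Cd274 they were Gbp2, an interferon-induced GTPase (0.84), Tmbim6 (0.76), Cyba (0.76), Myo9b (0.74) and Ttyh3 (0.74). For Pdcd1lg2 they were AA467197 (0.80), Gbp2 (0.79), Kazn (0.77), Hspb1 (0.76) and Cd274 itself (0.74). Pdcd1 had an r of -0.33 with Cd274 and -0.18 with Pdcd1lg2. The points share their libraries and differ in depth, so these values are a description.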

How the data were processed

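UMI counts per gene and cell were deposited by the authors as 1 matrix for each of the 4 libraries, made with Cell Ranger 7.1.0 (submitters' processing notes) on mm10. Summed UMIs of the libraries of 1 group differed beyond counting noise (chi-square per degree of freedom 54.8 and 116). Differences in the make-up of the cells enter this value, so it cannot tell repeats of 1 sample from separate samples. None was counted as a repeat, since the labels name them as replicates. Cells with at least 1000 UMIs, at least 100 genes, at most 15% mitochondrial UMIs and a complexity of at least 0.8 were kept. Marker gates gave 15 classes, cells with markers of more than 1 lineage were set aside as possible doublets, and a doublet score (scanpy 1.11.5, Scrublet) was tried as an alternative. UMIs were summed per class and library and tested with edgeR 4.0.16 (R 4.3.3; quasi-likelihood, TMM, filterByExpr), with p-values adjusted by Benjamini-Hochberg over all genes of a fit and a threshold of 0.05. Class pairs were fitted with the library as a block. DESeq2 1.42.0 was an alternative. The edgeR fit of tumor against control was checked on simulated counts in macrophages, CD8 T cells and cDC1, and the other fits were not. An exact permutation test of 2 against 2 libraries cannot go below p = 0.333. Shares were recomputed with cells thinned to 1000 UMIs, and exact Clopper-Pearson intervals of 95% cover counting error only. The 3 genes, the gates and the 5 gene lists were chosen with earlier results of these data known. List genes named are at most 4 per list and class, those called with the largest change, else the first of the list, apart from Tox, Irf1, Ifng, Ptpn11, Cmtm6 and Stat6, named for their role after their values were seen. Replicate numbers do not pair the libraries. Some items are not reported here.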

Additional observations from a re-analysis of the deposited data

Results flagged for a closer look

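Among the 11 classes with at least 10 cells in every library, Cd274 lay lower in both tumors than in both control skins in 2 and higher in 5. EdgeR called it in none of these 11. With 2 libraries a group such a separation can arise by chance, and the share of all genes that show it is not given here. In CD8 T cells the nearest libraries were control skin 2 at 1.419 and tumor 2 at 1.408, from 79 and 70 UMIs. Outside the 11, both tumors were also higher in mDC, and in DETC and LC, of which tumors held few cells. The ratio of the mean tumor level to the mean control level was 0.850 in CD8 T cells and 0.689 in NK cells, with both tumors below both control skins, and 1.38 in ILC2, 3.01 in cDC1, 2.18 in macrophages, 3.84 in monocyte-like cells and 1.42 in neutrophils, with both tumors above both control skins. The difference itself was tested for CD8 T cells against macrophages (edgeR, adjusted p = 0.125) and for NK cells against macrophages (adjusted p = 0.198), and was not tested for the other pairs. The fitted log2 fold change turned positive in CD8 T cells without cycling cells (0.088) and after thinning (0.028), and negative in ILC2 without a filter on low counts (-0.041) and without the cell with most UMIs in each library (-0.18).

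Signal was also found in cells outside the compared classes, given here as the mean level of the 2 tumors per 10,000 UMIs. Only items with both tumors above both control skins and more than 3 UMIs in every library are listed, so their direction follows from the selection. Cells with markers of non-immune cells went the other way for Pdcd1 and Pdcd1lg2, from few UMIs. Their mean levels in control skins and then tumors were 0.046 and 0.010 for Pdcd1 and 0.116 and 0.021 for Pdcd1lg2. Pdcd1 gave 7 and 4 UMIs in control skins and 3 and 2 in tumors, and Pdcd1lg2 gave 21 and 6 against 4 and 9. A single cell of control skin 1 held 17 of the 21. Cd274 in these cells overlapped, at 0.49 and 0.60 against 0.76 and 0.38. Pdcd1 was at 1.63 in T cells that met no T cell gate and at 0.689 in cells with markers of more than 1 lineage. Cd274 was at 5.64 in cells that met no gate, at 3.99 in cells with markers of more than 1 lineage and at 5.11 in LC, where the 2 and 5 LC of the tumors gave 33 and 11 UMIs, all from 1 cell in each. Pdcd1lg2 was at 0.445 in T cells that met no T cell gate, at 1.27 in cells that met no gate and at 0.764 in cells with markers of more than 1 lineage.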

How the results depend on the processing

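Values are log2 fold changes, tumor against control, unless named otherwise, and p-values are adjusted ones of edgeR or, where named, DESeq2. Pdcd1lg2 in cDC1 kept its call in every setting that gave a value, from 3.29 to 4.35, and with cells thinned to 1000 UMIs it could not be fitted. The cause of the changes below was not tested. With 2 libraries a group, edgeR calls of single genes moved with single libraries, and the number of genes called in macrophages ran from 12 (thinned) to 1225 (1 library left out), against 54.

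With DESeq2, Pdcd1 in Treg was 2.01 (adjusted p = 0.0751), Cd274 was 0.93 in macrophages, 1.80 in monocyte-like cells and 0.000676 in Treg, Pdcd1lg2 was 1.19 in cDC2 and 2.74 in monocyte-like cells, and the tumor change of Pdcd1lg2 in cDC2 against macrophages was 0.24. With cells thinned to 1000 UMIs, Pdcd1 in CD4 T cells was 1.05 (adjusted p = 0.189), Cd274 was 0.028 in CD8 T cells, 0.11 in CD4 T cells, -0.0099 in cDC2 and 2.12 in monocyte-like cells, and Pdcd1lg2 in cDC2 was 1.90. Mean shares of positive cells after thinning, control and then tumor, were 6.90% and 20.5% for Pdcd1 in CD8 T cells, 0 and 11.4% in Treg, 18.7% and 37.7% for Cd274 in macrophages, 8.40% and 32.3% in monocyte-like cells, 0 and 7.74% for Pdcd1lg2 in cDC1 and 5.42% and 18.3% in cDC2, with 15.7% for Pdcd1 in tumor CD4 T cells. Without TMM, Cd274 was 0.030 in CD4 T cells, 0.025 in Treg, 1.62 in cDC1 and 1.86 in monocyte-like cells, and Pdcd1lg2 in monocyte-like cells was 2.77. Without a filter on low counts, Cd274 was 0.031 in Treg, -0.041 in ILC2, 1.30 in cDC1, 1.00 in macrophages and 1.82 in monocyte-like cells, and Pdcd1lg2 was 1.24 in CD4 T cells, 1.98 in Treg, 1.19 in cDC2, 1.06 in macrophages and 2.72 in monocyte-like cells. In that setting the level of Pdcd1 in Treg against CD4 T cells was -1.16 (adjusted p = 0.0110) and that of Pdcd1lg2 in cDC2 against macrophages 0.86 (adjusted p = 0.0366).

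With stricter gates, Pdcd1 in Treg was 1.52 (adjusted p = 0.148), Pdcd1lg2 was -0.26 in ILC2 and 2.68 in monocyte-like cells, and shares were 75.1% for Pdcd1-positive tumor CD8 T cells, 14.3% for Pdcd1-positive control Treg, 66.5% for Cd274-positive control macrophages and 13.7% for the Pdcd1 UMIs found in control CD8 T cells. Without cells with Mki67 or Top2a UMIs, Pdcd1 in CD4 T cells was 1.33 (adjusted p = 0.167), Cd274 was 0.088 in CD8 T cells, 0.080 in CD4 T cells, 0.031 in Treg and 1.80 in monocyte-like cells, and Pdcd1lg2 was -0.19 in NK cells and 3.08 in monocyte-like cells. Without the cell with most UMIs of the gene in each library, a choice made after seeing the data, Cd274 was 0.098 in Treg, -0.18 in ILC2, 1.90 in cDC1 and 2.00 in monocyte-like cells, and Pdcd1lg2 in ILC2 was -0.078.

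Leaving out each library in turn gave, for Pdcd1, 1.07 to 1.76 in CD8 T cells, 1.24 to 2.04 in CD4 T cells, 1.35 to 3.22 in Treg and -0.68 to 8.29 in macrophages, where it is at the limit of a count of 0. For Cd274 it gave -0.34 to 0.22 in CD4 T cells, -0.32 to 0.32 in Treg, -0.011 to 0.14 in ILC2, 0.81 to 2.00 in cDC1, -0.070 to 0.70 in cDC2, 0.77 to 1.16 in macrophages, 1.36 to 2.63 in monocyte-like cells and -0.029 to 0.76 in mast cells. For Pdcd1lg2 it gave -0.87 to 0.027 in CD8 T cells, 0.75 to 2.16 in CD4 T cells, 1.49 to 2.38 in Treg, -0.18 to 0.39 in NK cells, -8.00 to 1.46 in ILC2, 0.62 to 1.71 in cDC2, 0.12 to 2.68 in macrophages and 2.20 to 3.26 in monocyte-like cells. Differences of tumor changes ran from -0.56 to 0.13 for Pdcd1 in CD8 T against CD4 T cells, from -0.75 to 2.00 in Treg against CD4 T cells and from -1.01 to 0.58 for Pdcd1lg2 in cDC2 against macrophages.

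The replicate block gave 1.93 for Cd274 in monocyte-like cells (adjusted p = 0.00114) and, for Pdcd1lg2, 1.94 in Treg (adjusted p = 0.0433) and 2.92 in monocyte-like cells (adjusted p = 0.00151), and changed no other call of the 3 genes. Correlations of same-numbered libraries were -0.068 to 0.321 over the classes, and with 2 libraries a group the numbers are not read as pairs.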
